A study of Drosophila melanogaster with 3 samples.

Results

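Small nucleolar RNA (snoRNA) genes and the genes that carry them were examined in chromatin immunoprecipitation sequencing (ChIP-seq) of the CG17361 protein in *Drosophila melanogaster*. The members are the annotated genes whose symbol begins with snoRNA: in Ensembl, 257 of the 18164 genes on the 6 chromosome arms analysed (2L, 2R, 3L, 3R, X and the small arm 4), and the genes on the same strand whose body holds one of them, called hosts here, of which there are 85. All samples belong to 1 group: whole embryos of the CG17361-GFP strain, collected from 0 to 24 h of age, carrying an insertion that expresses CG17361 fused to enhanced green fluorescent protein, with the fusion recovered by an antibody against GFP. The strain is 1 transgenic line, the embryos were not sorted by cell type, and no untagged or control sample was analysed here. The 3 libraries are labelled as biological replicates 1, 2 and 3, and the labels do not say whether they came from separate collections. Sonicated fragments were 200 to 800 bp long.

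snoRNAs are short RNAs that stay in the nucleolus and guide chemical changes on ribosomal RNA by base pairing. Box C/D snoRNAs direct methylation of the ribose, through the methyltransferase Fibrillarin, and box H/ACA snoRNAs direct the conversion of uridine to pseudouridine, through the synthase that flies call Nop60B. In animals most of them have no promoter of their own: they lie in introns of a host gene and are released after its transcript is spliced, so that the promoter of the host drives them. Many hosts encode ribosomal proteins or other parts of the translation machinery, and others, the U snoRNA host genes (Uhg) of the fly, encode no protein and carry a snoRNA in intron after intron. Binding of a protein to such a promoter could therefore concern the host gene, its snoRNAs or both, and peak positions alone cannot show an effect on either.

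The measured quantity is the position of a peak summit, the base at which the authors' peak caller placed the strongest recovery within a peak. A gene was called bound when a summit lay within 500 bp of the snoRNA start or of any annotated transcription start site (TSS) of a host. The sequences below were chosen to show the 2 situations that recur: promoter windows of hosts, from 250 bases before the TSS to 50 bases from it on, and a snoRNA that lies so close to its host's TSS that 1 summit serves both. They are from RefSeq's Release 6 genome, which has the coordinates of dm6, and run 5′ to 3′ on the gene's strand. Capitals mark matches, on either strand, to the words TATCGATA (the DNA replication-related element, DRE) and ATATTTTA, and in the snoRNA the ACA box near its 3′ end.
RpS7 window, chr3R:30208971-30209270, minus strand: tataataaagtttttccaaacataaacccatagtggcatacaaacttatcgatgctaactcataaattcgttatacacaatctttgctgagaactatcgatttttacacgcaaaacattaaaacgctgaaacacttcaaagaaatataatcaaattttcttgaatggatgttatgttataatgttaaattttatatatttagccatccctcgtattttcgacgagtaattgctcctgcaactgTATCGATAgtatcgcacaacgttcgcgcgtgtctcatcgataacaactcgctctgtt
Arpc2 window, chr2L:20416807-20417106, plus strand: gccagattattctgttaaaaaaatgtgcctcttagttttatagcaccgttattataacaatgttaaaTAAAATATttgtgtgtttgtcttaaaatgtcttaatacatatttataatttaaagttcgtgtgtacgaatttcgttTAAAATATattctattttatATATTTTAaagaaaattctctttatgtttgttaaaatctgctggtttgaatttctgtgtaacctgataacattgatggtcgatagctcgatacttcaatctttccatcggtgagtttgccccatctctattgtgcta
Uhg8 window, chr3L:20453043-20453342, plus strand: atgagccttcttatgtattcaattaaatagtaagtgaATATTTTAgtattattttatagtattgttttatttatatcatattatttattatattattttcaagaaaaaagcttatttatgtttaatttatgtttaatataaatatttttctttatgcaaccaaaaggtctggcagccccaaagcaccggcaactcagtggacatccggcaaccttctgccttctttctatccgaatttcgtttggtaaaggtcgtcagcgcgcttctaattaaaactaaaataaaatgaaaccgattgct
kra window, chr3R:5601087-5601386, minus strand: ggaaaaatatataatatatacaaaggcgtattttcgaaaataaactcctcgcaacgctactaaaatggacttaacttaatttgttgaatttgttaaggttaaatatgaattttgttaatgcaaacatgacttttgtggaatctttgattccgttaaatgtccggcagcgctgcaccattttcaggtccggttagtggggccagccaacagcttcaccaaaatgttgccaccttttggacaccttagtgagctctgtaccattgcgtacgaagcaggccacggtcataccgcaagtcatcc
RpL10Ab window, chr3L:11822601-11822900, plus strand: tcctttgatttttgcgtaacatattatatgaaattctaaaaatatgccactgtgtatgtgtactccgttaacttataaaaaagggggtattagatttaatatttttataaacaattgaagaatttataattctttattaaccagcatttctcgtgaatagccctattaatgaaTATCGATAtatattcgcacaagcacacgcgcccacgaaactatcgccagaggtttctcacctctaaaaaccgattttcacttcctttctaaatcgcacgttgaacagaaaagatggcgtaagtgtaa
snoRNA:Psi18S-920 gene, chr3L:11822984-11823124, plus strand: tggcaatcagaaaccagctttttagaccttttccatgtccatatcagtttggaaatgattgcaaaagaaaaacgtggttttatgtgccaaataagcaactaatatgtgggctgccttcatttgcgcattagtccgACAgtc

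In each promoter window but that of kra, a summit of the conservative list, the main peak list used here, fell inside the letters shown. It lay 46 bases before the TSS in RpS7, which encodes a protein of the small ribosomal subunit and holds 7 snoRNA genes. It lay 83 bases before the TSS in Arpc2, an actin-nucleating Arp2/3 complex subunit that holds 17, the most of any host. In Uhg8, a noncoding host of 3, it lay 193 bases before the TSS. The kra window, of a host of 8 snoRNA genes, held no summit of that list. A peak within 500 bp of a kra TSS did pass the authors' reproducibility threshold, described below, but is missing from that list. RpL10Ab encodes a protein of the large subunit, and its summit lay 118 bases before its TSS and 251 bases before the start of snoRNA:Psi18S-920, the H/ACA snoRNA in its intron.

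The members form a compact set of loci. Of the snoRNA genes, 115 belong to the H/ACA class and 93 to the C/D class by their symbols, and 49 have symbols that name neither. They were 46 to 511 bp long, with a median of 134 bp. A host was found for 236: 224 had 1 host, 12 lay in 2 overlapping genes, and 21 lay in none. An intron of a host held 230 of the 236. Among the hosts 74 are protein-coding, 10 are noncoding RNA genes and 1, CR33222, is a pseudogene. The coding hosts include 29 genes of cytosolic ribosomal proteins and the elongation factor gene eEF1alpha1. While 46 hosts hold a single snoRNA gene, 15 hosts hold 5 or more, and these 15 carry 133 of the snoRNA genes. snoRNA genes of 1 host share its promoter and are not independent of each other. The median distance from a snoRNA start to the nearest TSS of its host was 1422 bp.

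Thresholded lists hold the peaks that pass the authors' irreproducible discovery rate (IDR), a measure of how well 2 rankings of peaks agree. The thresholded list of replicate 1 held 5942 peaks, that of replicate 2 3797 and that of replicate 3 5576, and the conservative list, which compares replicates 1 and 3, held 7804. No read counts accompany them, so the depth behind each list is unknown, and replicate 2, with the shortest list, gave the lowest share in most gene groups below.

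Hosts were bound far more often than snoRNA starts. A summit lay within 500 bp of a TSS at 56 of the 85 hosts (65.9%) in the conservative list, beside 22.3% of all annotated genes and 26.2% of the protein-coding genes that hold no snoRNA. In the replicates' own lists 57, 42 and 47 hosts were bound, or 57.3% ± 8.99 (SD, n = 3), where the shares of all genes were 19.3%, 13.4% and 18.3% and those of coding genes without a snoRNA 23.0%, 16.0% and 21.6%. The host share exceeded that of coding genes without a snoRNA by 44.1, 33.4 and 33.6 percentage points in replicates 1, 2 and 3, in 3 of 3 replicates and by 37.0 ± 6.09 on average. A two-sided exact permutation test, which flips the sign of each replicate's difference, gave p = 0.25, the smallest value 3 replicates allow, so this design cannot reach 0.05. The share of hosts bound in all 3 replicates was 43.5% (37 hosts), beside 13.0% of the coding genes without a snoRNA. Of the bound hosts of the conservative list, 66.1% were bound in every replicate's list, beside 48.7% of the bound coding genes without a snoRNA.

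**Figure D1:**
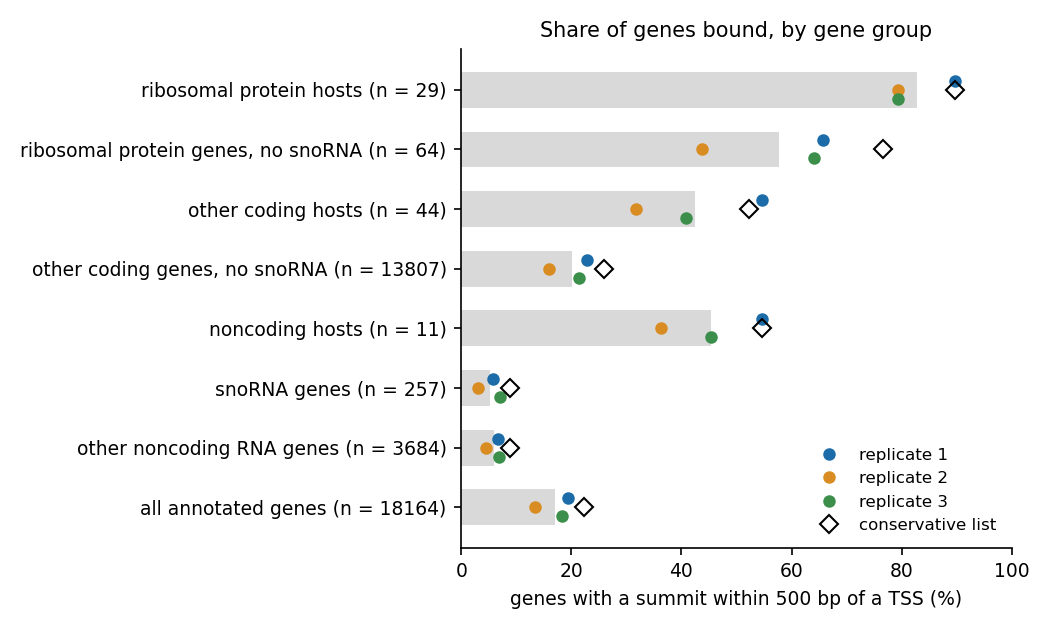
Share of genes with a summit within 500 bp of a TSS, in percent, for 8 gene groups. Grey bars are the mean of the replicates' own lists, filled circles are replicates 1, 2 and 3, and open diamonds the conservative list. Ribosomal protein hosts stand at 79.3% to 89.7% in every list, and snoRNA genes between 3.11% and 8.95%.

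Hosts have more annotated TSSs than other coding genes, 2.01 against 1.40 per gene, which gives each more places where a summit can fall. Counted per TSS, 50.3% of host TSSs and 24.1% of the TSSs of coding genes without a snoRNA were bound in the conservative list, and the difference was 25.2 ± 3.22 percentage points over the replicates (n = 3; exact permutation test, p = 0.25, the smallest possible). With the ribosomal protein genes left out, coding hosts were bound at 24 of 45 genes (53.3%), beside 26.0% of other coding genes without a snoRNA, a difference of 23.7 ± 8.06 percentage points in the replicates. Per TSS the same contrast was 32.0% against 23.8% in the conservative list, or 8.16 percentage points, where the count per gene gave 27.3. It was 11.3, 5.92 and 5.66 percentage points in replicates 1, 2 and 3, or 7.63 ± 3.19 (SD, n = 3). Most of the excess per gene was thus not seen per TSS, though the direction was the same in each replicate.

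Ribosomal protein hosts, which supply the ribosome with both protein and modification guides, were bound in 26 of 29 cases (89.7%) in the conservative list and in 26, 23 and 23 cases in replicates 1, 2 and 3. The 64 ribosomal protein genes that hold no snoRNA were bound in 49, 42, 28 and 41 cases in the same lists. The host share was higher in 3 of 3 replicates, by 24.0, 35.6 and 15.2 percentage points, or 24.9 ± 10.2 (SD, n = 3; exact permutation test, p = 0.25, the smallest possible). Counted per TSS, the conservative list gave 84.2% against 82.2%, and the replicates gave differences of 15.1, 26.2 and 4.38 percentage points. The ribosomal protein genes without a snoRNA that were not bound in the conservative list include these, whose names carry an added letter, number or -like: RpL10Aa, RpL22-like, RpL24-like, RpL37-2, RpS10a, RpS15Ab, RpS19b, RpS28-like, RpS28a and RpS5b. The others not bound in that list were RpL35, RpL39, RpL41, RpS24 and RpS3. RpS3 was bound in 2 of the replicates' lists, and RpL39, RpL41 and RpS28a in 1 each. Names with an added letter also occur among the bound ribosomal protein hosts, as RpL10Ab and RpS5a, and bound genes with such names were not counted. The part of the unbound genes in the difference was not tested.

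Of the 10 strongest host promoter peaks, 2 were at ribosomal protein genes. Stt3A, which encodes a catalytic subunit of the oligosaccharyltransferase and holds 2 snoRNA genes, led with an authors' signal score of 732 (rank 259 of 7804) in the conservative list and of 239, 197 and 295 in replicates 1, 2 and 3. The scale of the score is not stated by the sources, and scores are comparable only within a list. The summit of Stt3A lay 396 bp upstream of its TSS and also within 500 bp of the TSS of bves. For drn the score was 658, and 271, 183 and 214 in the replicates. The splicing factor gene SC35 scored 657, and 268, 154 and 245 in the replicates, from a summit shared with the translation termination factor gene eRF3. All 3 hosts were bound in every list.

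Behind them came lola, the gene of a family of zinc finger transcription factors, at 655, and Irbp, the fly Ku70 gene of DNA end joining, at 654. RpL28, a ribosomal protein gene with 5 snoRNA genes, scored 650, and 268, 188 and 216 in the replicates. Dys, the dystrophin gene, followed at 573, Uhg4 at 556, RpS7 at 546 and nop5 at 537. Each of these 10 hosts was bound in all 3 replicates. Their snoRNA counts ranged from 1 to 7, and no host of 8 or more was among them.

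**Figure D2:**
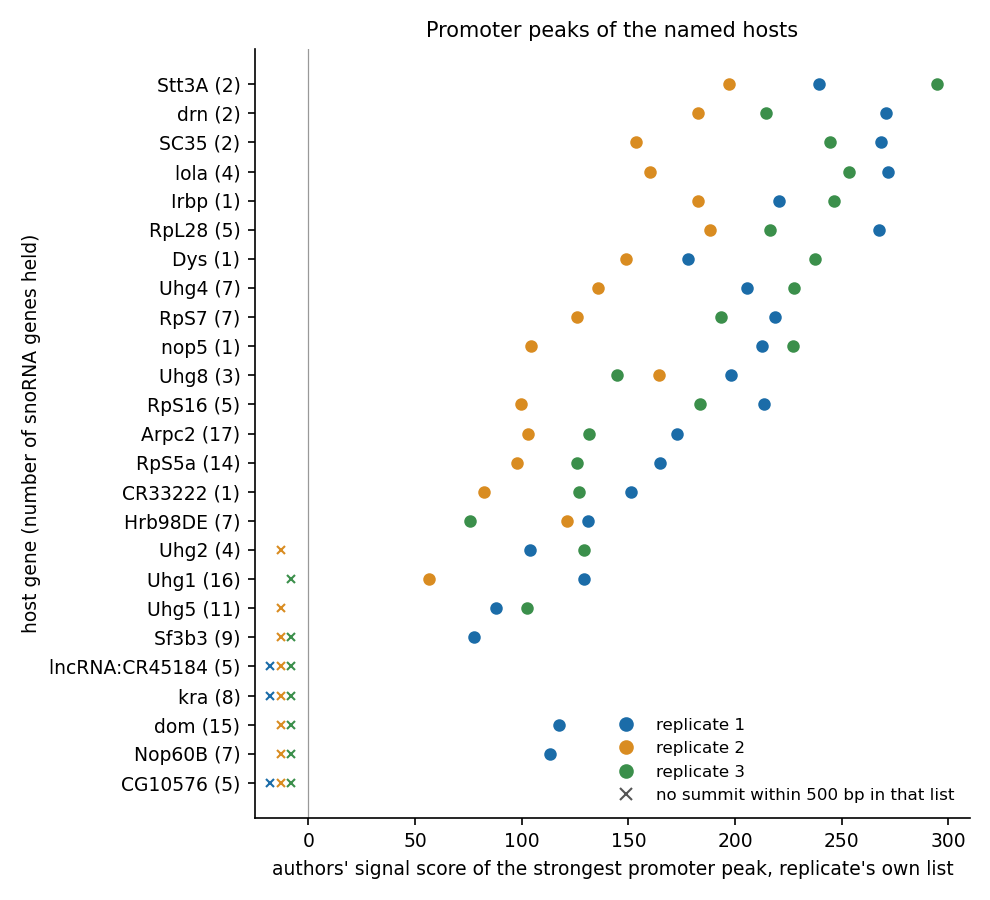
Authors' signal score of the strongest promoter peak in each replicate's own list, for the 10 hosts with the strongest conservative peak, the hosts of 5 or more snoRNA genes and the bound noncoding hosts. Circles are scores in replicates 1, 2 and 3, crosses left of 0 mark a list with no summit within 500 bp, and numbers in brackets are snoRNA genes held. The first 16 hosts from the top have a score in every replicate.

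Over all bound hosts the median score in the conservative list was 339, against 274 for bound coding genes without a snoRNA. This difference was not seen in the replicates' own lists, where the medians of hosts minus those of the other coding genes were -6.70, -7.50 and 5.62 (exact permutation test, p = 0.50). The replicates thus gave no common direction for the height of host peaks. Host summits lay closer to the TSS. The median position was 104 bp upstream of the nearest TSS for hosts (-103.5 bp) and 158 bp upstream for the other coding genes, and the medians differed by 30.0, 62.0 and 77.0 bp in the replicates, toward the TSS in 3 of 3 (exact permutation test, p = 0.25, the smallest possible). Ribosomal protein genes lay closer still whether or not they hold a snoRNA, with medians of -76.0 bp for hosts and -67.0 bp for the others. Hosts also have more TSSs from which the nearest is taken, and the part of this in their position was not tested. The summit was upstream of the TSS at 50 of the 56 bound hosts. At 29 of them (51.8%) the same peak was also within 500 bp of the TSS of another coding gene, beside 56.8% for bound coding genes without a snoRNA, and those peaks cannot be assigned to the host alone.

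The 15 hosts of 5 or more snoRNA genes were bound in 10 cases (66.7%) in the conservative list, beside 65.9% of all hosts and 22.3% of all genes. Hosts of 2 to 4 snoRNA genes were bound in 83.3% of cases there and hosts of 1 in 56.5%. Arpc2 held 17, all H/ACA guides with names of the Psi18S-525 and Psi18S-640 families, and scored 395, and 173, 103 and 132 in replicates 1, 2 and 3. Its snoRNA starts ran from 1291 to 4871 bp after its 5′ end, and none of them was within 500 bp of a conservative summit, while the first, snoRNA:Psi18S-525a, had a peak within 500 bp in replicate 3, at 71.7. Uhg1, a noncoding host of 16, scored 255, with 129 and 56.7 in replicates 1 and 2 and no peak in replicate 3. RpS5a held 14 snoRNA genes and scored 382, and 165, 97.8 and 126 in the replicates. Uhg5, with 11, scored 218, with 88.1 and 102 in replicates 1 and 3 and none in replicate 2. These hosts were thus bound in 2 or 3 replicates each.

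Sf3b3, the gene of a splicing factor subunit with 9 snoRNA genes, scored 151 and appeared in replicate 1 only, at 77.8. Hrb98DE, an hnRNP gene with 7, scored 323, and 131, 121 and 76.0 in the replicates. RpS7, with 7, had 218, 126 and 193 in the replicates, and RpS16, with 5, had 213, 99.7 and 184 beside 481 in the conservative list. Uhg4, with 7, had 206, 136 and 228. Among these 5 hosts Sf3b3 was the only one missing from a replicate's list.

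The other 5 hosts of many snoRNA genes were not bound in the conservative list. The chromatin remodelling ATPase gene dom, host of 15, had a summit in replicate 1 only, with a score of 118, and none in the conservative ranked list. Nop60B, host of 7 and itself the gene of the H/ACA pseudouridine synthase, had a ranked peak with a score of 34.8 and a −log10 IDR of 1.33, and a thresholded one in replicate 1 only, at 113. That IDR value is under the authors' threshold of 2. The translation regulator gene kra, host of 8, had a ranked peak with a score of 336 and a −log10 IDR of 4.14, past that threshold, yet its line is not in the thresholded list. CG10576 and lncRNA:CR45184, with 5 each, had no summit in the ranked list, and neither they nor kra appeared in any replicate's list.

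**Figure D3:**
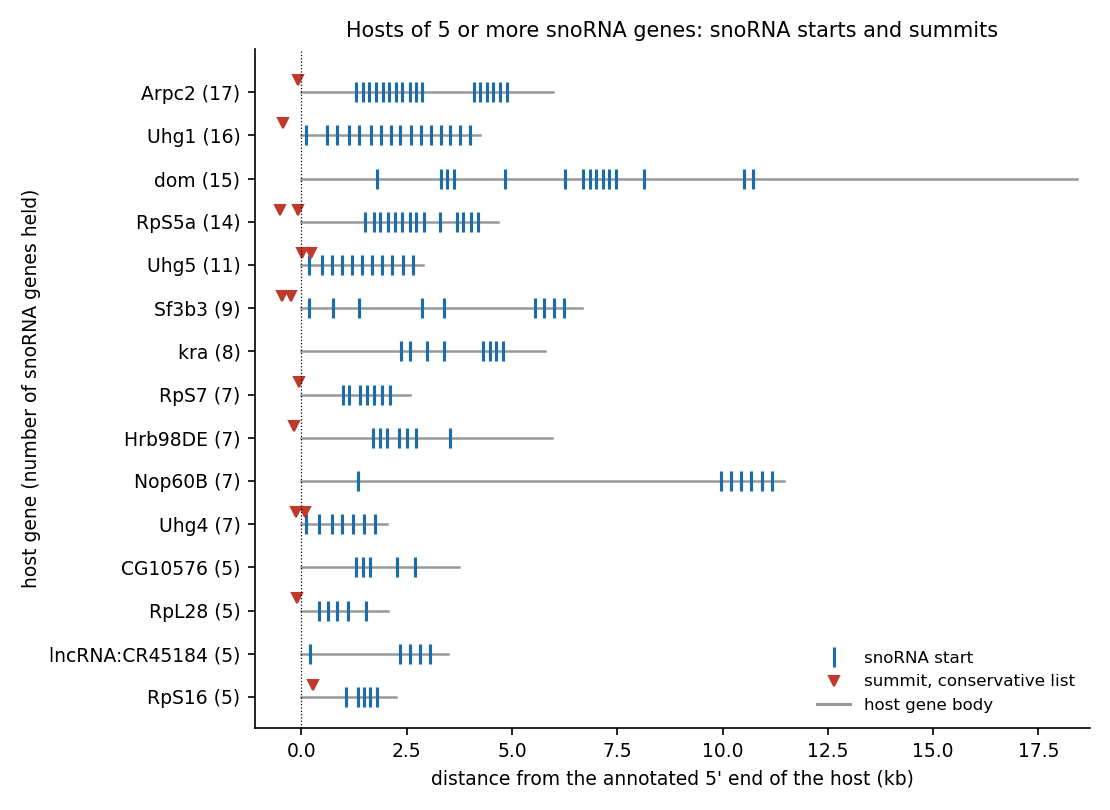
Hosts of 5 or more snoRNA genes drawn from their annotated 5′ end, in kb, with gene bodies as grey lines, snoRNA starts as blue ticks and conservative summits as red triangles (summits from 1000 bp upstream to the 3′ end are shown). Arpc2 has 17 ticks between 1291 and 4871 bp and 1 triangle at -83 bp. The triangles of bound hosts lie near 0, ahead of most ticks.

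Noncoding hosts were bound in 6 of 11 cases, and in 6, 4 and 5 cases in the replicates, where the conservative share was 22.3% of all genes and 8.93% of other noncoding RNA genes. Besides Uhg1, Uhg4 and Uhg5 they were Uhg2, Uhg8 and CR33222. At each of these hosts the conservative peak was also within 500 bp of the TSS of a coding gene. The coding gene was rdgBbeta for Uhg1, Bka for Uhg2, Boot for Uhg4, CG12863 for Uhg5 and CG5199 for Uhg8. None of these peaks can thus be assigned to the noncoding host alone. Uhg8 scored 482, and 198, 165 and 145 in replicates 1, 2 and 3. Uhg2, host of 4, scored 263, with 104 and 129 in replicates 1 and 3 and none in replicate 2. CR33222 shares its peak, at 378, with RpS6, a ribosomal protein gene that overlaps it and holds the same snoRNA, so the 56 bound hosts had 55 distinct peaks. Uhg3 had a ranked peak with a score of 115 and a −log10 IDR of 1.59, under the threshold, and Uhg7 had none.

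Among all 29 hosts not bound in the conservative list, 13 had no ranked summit within 500 bp of a TSS, 14 had one that ranked below the IDR threshold, and 2, kra and RpL13A, had one that passed it but is not in the thresholded list. RpL13A had a score of 445 and a −log10 IDR of 5, within the range of the bound hosts. Of the 29, 6 were bound in at least 1 replicate's list, and 23 in none. In the other direction, 3 of the 56 hosts bound in the conservative list, kis, Arf1 and CG42564, were bound in no replicate's own list. The same held for 14.4% of the bound genes of all kinds and 13.8% of the bound coding genes without a snoRNA.

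The genes of the snoRNA-protein particle itself were bound in 4 of 8 cases in the conservative list and in 5, 3 and 3 in the replicates, beside 22.3% of all genes, and 19.3%, 13.4% and 18.3% in the replicates. The genes nop5, Fib and Nop60B are counted here and among the hosts. Of the C/D proteins, nop5, the scaffold protein gene that is also a host, scored 537, and 213, 104 and 227 in the replicates. Fib, the Fibrillarin gene and likewise a host, scored 249, and 79.4, 45.6 and 111 in the replicates. The C/D gene hoip was bound in replicate 1 only, and Nop56 in no list. Of the H/ACA proteins, NHP2 scored 361, and 132, 90.7 and 154 in the replicates, Nop10 scored 127 with no peak in a replicate's list, Nop60B was bound in replicate 1 only, and Gar1 in no list.

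snoRNA starts themselves were bound in 23 of 257 cases (8.95%) in the conservative list, beside 8.93% of the other noncoding RNA genes and 22.3% of all genes. In replicates 1, 2 and 3 there were 15, 8 and 18 bound snoRNA genes, or 5.32% ± 2.00 (SD, n = 3), where the other noncoding RNA genes gave 6.62%, 4.51% and 6.95%. The difference between both groups was -0.708 ± 0.727 percentage points, with 1 of 3 replicates above 0 (exact permutation test, p = 0.50), so no difference from other noncoding RNA genes was detected with 3 replicates. By class, 11 of 115 H/ACA genes, 8 of 93 C/D genes and 4 of 49 others were bound, and the C/D share minus the H/ACA share was -0.284 ± 0.846 percentage points in the replicates (exact permutation test, p = 0.75). The 23 genes rested on 20 distinct peaks. None of the 17 scaRNA genes, which guide changes on spliceosomal RNA, and none of the 3 genes for U3, the processing snoRNA, was bound in any list, while 25 of 290 tRNA genes (8.62%) were bound in the conservative list, with 17, 7 and 26 in the replicates. Of the 32 snRNA genes 4 were bound, and 0, 1 and 5 in the replicates.

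Most of the bound snoRNA genes lay near a host TSS. Among the 35 snoRNA genes that start within 500 bp of a host TSS, 13 were bound (37.1%). Of the 48 that start over 500 and up to 1000 bp away, 1 was bound, and of the 153 farther away, 4 (2.61%). In the replicates the first group stood at 34.3%, 17.1% and 22.9% and the last at 0.654%, 0.654% and 1.96%, a difference of 23.7 ± 8.90 percentage points in the same direction in 3 of 3 replicates (exact permutation test, p = 0.25, the smallest possible). The 500 bp window around the starts of the first group overlaps that of the host TSS by definition. The snoRNA genes over 1000 bp from a host TSS were bound in a smaller share than other noncoding RNA genes, by 4.94 ± 1.06 percentage points in the replicates and in each of them (exact permutation test, p = 0.25, the smallest possible). The other noncoding RNA genes were not chosen by distance from a TSS, so this contrast cannot show a depletion at snoRNA genes.

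Measured against every annotated TSS rather than the host's alone, the contrast was similar. Of the 209 snoRNA genes that start over 500 bp from any TSS of another gene, 8 were bound (3.83%), beside 3.35% of all bases that far from a TSS which lie within 500 bp of a summit. Of the 48 that start within 500 bp of another TSS, 15 were bound (31.3%). In all, 14 of the 23 bound snoRNA genes had a summit within 500 bp of a host TSS, 3 within 500 bp of another gene's TSS and 6 of none. Taking the strongest peak at each gene, the summit was upstream of the snoRNA start in 20 of the 23 and inside the snoRNA gene in 2. Over all peaks, 4 conservative summits lay inside a snoRNA gene, and 1, 0 and 3 in the lists of replicates 1, 2 and 3.

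**Figure D4:**
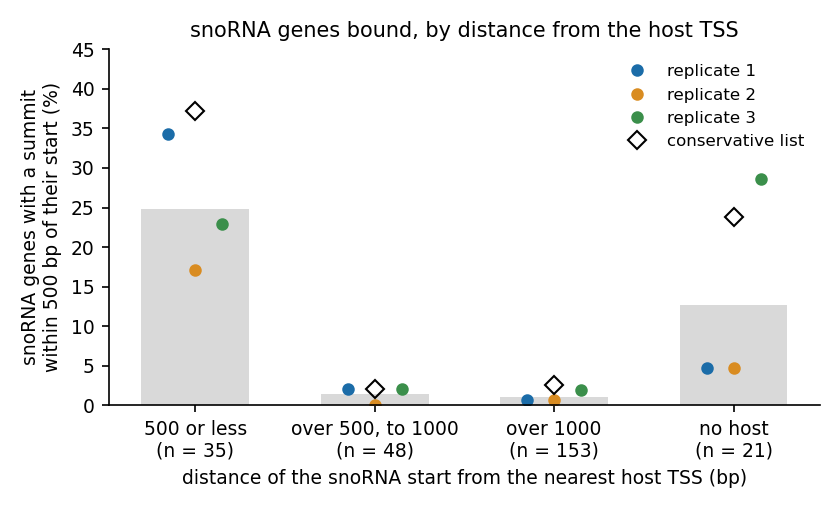
Share of snoRNA genes with a summit within 500 bp of their start, in percent, by distance of the start from the nearest host TSS in bp. Grey bars are the mean of the replicates' own lists, circles replicates 1, 2 and 3, and diamonds the conservative list. The first group reaches 37.1% in the conservative list, and both groups beyond 500 bp stay at or below 2.61%.

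snoRNA genes without a host were bound in 5 of 21 cases (23.8%) in the conservative list, beside 22.3% of all genes and 8.93% of other noncoding RNA genes. In replicates 1, 2 and 3 they were bound in 1, 1 and 6 cases, beside 19.3%, 13.4% and 18.3% of all genes. The share of 23.8% thus rested mainly on replicate 3. Of the 5, 3 share a peak, with a score of 119, near the TSS of CG13334: snoRNA:Psi28S-1153 and 2 neighbours on 2R that are named by position, all bound only in replicate 3 among the replicates. snoRNA:Psi18S-176, with a score of 174, had its summit inside the gene, 40 bp after its start, and was also in replicate 3 only. snoRNA:Or-ACA6 scored 347, and 138, 89.0 and 132 in the replicates, from a summit 489 bp before its start that had no TSS of another gene within 500 bp.

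The 5 snoRNA genes bound in every list were all of the H/ACA class: 4 with a host TSS near the summit, and snoRNA:Or-ACA6. snoRNA:Psi28S-2949, the first snoRNA of Uhg4, starts 99 bp from the host TSS and shares its peak, with 206, 136 and 228 in the replicates. snoRNA:Psi18S-920, printed above, had a score of 417, and 194, 72.4 and 141 in the replicates. snoRNA:Or-aca2, in RpS6 and CR33222, had 378, and 151, 82.4 and 127. For snoRNA:Psi18S-1275, in RpS29, the score was 274, and 89.2, 76.1 and 106, with the summit 4 bp from the host TSS and 297 bp before the snoRNA start. Their starts lay 99 to 301 bp from the host TSS.

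The other 4 bound snoRNA genes that have a host but no host TSS near the summit had lower or less repeated signals. snoRNA:Or-ACA9, 3545 bp inside AdamTS-A, scored 244, with 89.9 and 109 in replicates 1 and 3. snoRNA:Or-CD4, the last snoRNA of Uhg5, scored 208, with 68.6 and 86.8 in replicates 2 and 3 and a summit 416 bp after its start. snoRNA:CG31191-a scored 110 and snoRNA:Me18S-C1968, in Swim, 79.6 with the summit inside it, 19 bp after its start. The last 2 were in no replicate's own list.

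The bound snoRNA genes had a median score of 208 in the conservative list, and the medians in the replicates were lower than those of bound coding genes without a snoRNA by 40.4, 18.6 and 23.6 (exact permutation test, p = 0.25, the smallest possible). Of them, 21.7% were bound in all 3 replicates, beside 47.9% of the bound genes of all kinds. Nearest inside the 500 bp limit were snoRNA:Or-ACA6 at 489 bp, snoRNA:Psi18S-1086 at 425 bp and snoRNA:Psi28S-1153 at 421 bp. Nearest outside it were snoRNA:Or-CD13 and snoRNA:Me28S-C3227b, both at 508 bp, and snoRNA:Psi28S-1192d at 517 bp. Among hosts the nearest inside were pAbp at 451 bp, Uhg1 at 443 bp and lola at 434 bp, and the nearest outside tou at 634 bp, CG3902 at 732 bp and hts at 828 bp.

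**Figure D5:**
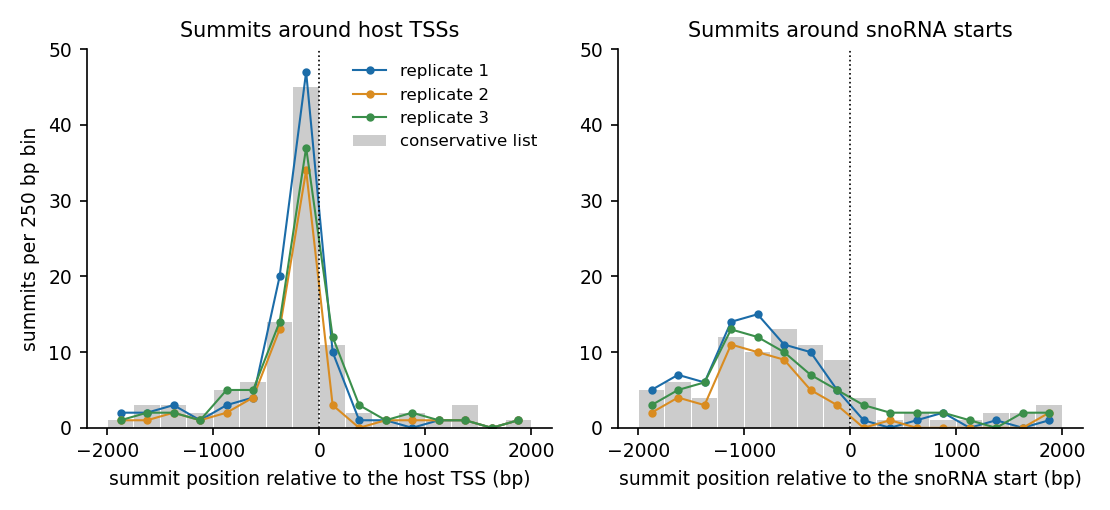
Summits per 250 bp bin around host TSSs (left) and snoRNA starts (right), with position in bp relative to each on its own strand. Grey bars are the conservative list and lines replicates 1, 2 and 3. Around host TSSs the bin just upstream holds 45 conservative summits and 47, 34 and 37 in the replicates, while around snoRNA starts the summits spread over the upstream bins, with at most 13 in a bin of the conservative list.

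Seen from the snoRNA, most summits within 2000 bp lay upstream, on the side of the host promoter: 13 in the bin that ends 500 bp before the start and 9 in the bin just before it, and 4 in the first bin after it. Counted through the host, 176 of the 236 hosted snoRNA genes (74.6%) had a bound host promoter in the conservative list, 65 of 87 in the C/D class, 77 of 106 in the H/ACA class and 34 of 43 of the others. A bound host promoter was thus found for 176 snoRNA genes and a bound start for 23. The 176 are not independent, since snoRNA genes of the same host share its promoter. Any TSS of the host counted, at whatever distance from the snoRNA. By host, 56 of 85 were bound (65.9%), beside 22.3% of all genes.

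Promoter sequence was compared by counting windows of the length printed above that hold a word on either strand, at each of the 171 host TSSs and the 23998 TSSs of all genes. Windows of nearby TSSs of 1 gene can overlap and count the same word again. Hosts have 2.01 TSSs per gene against 1.32 for all genes, and no count per gene was made. TATCGATA, which is its own reverse complement, was in 15.8% of host windows and 6.80% of all windows. Within the hosts it was in 24.6% of ribosomal protein host windows and 11.4% of the others, and ribosomal protein genes without a snoRNA had it in 28.7%. GGTCACAC, the core of promoter motif 1, was in 10.5% of host windows and 5.65% of all. CTTTT starting within 3 bases of the TSS, on the gene's strand only, as in the TCT initiator of translation genes, was in 7.02% of host windows and 1.24% of all. GAGAG was in 38.0% and 32.4%, with 15.8% of ribosomal protein host windows below the share of all windows and 49.1% of the other host windows above it. ATATTTTA was in 8.19% of host windows and 8.55% of all, and TTTAAAAA in 9.36% and 12.2%. None of these words contains another. The 257 windows at snoRNA starts held TATCGATA in 3 cases and GGTCACAC in 1.

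The same words were counted at the summits, in fewer windows. Within 50 bp of the summit, 5 of the 55 host peaks held TATCGATA (9.09%), beside 3.28% of the other promoter peaks, but the replicates gave 1 of 56 (1.79%), 4 of 41 (9.76%) and 2 of 46 (4.35%), beside 2.94%, 1.72% and 3.12% of the other promoter peaks. Host peaks thus had the lower share in replicate 1 and the higher in replicates 2 and 3. ATATTTTA and TTTAAAAA were each in 3 of the 55 (5.45%), beside 5.99% and 8.08% of the other promoter peaks. The mean G+C content within 50 bp of host summits was 34.8%, and 41.1% in windows 250 bp to either side, beside 33.1% and 41.9% for other promoter peaks. In the replicates host summits had 34.1% ± 1.56 G+C and other promoter summits 31.7% ± 1.17 (SD, n = 3 each). Within replicate 1 the values were 32.3% and 32.2%, within replicate 2 35.2% and 30.3%, and within replicate 3 34.8% and 32.4%. In the printed windows, RpS7 has TATCGATA 7 bases before its TSS, RpL10Ab has it 77 bases before, Arpc2 has ATATTTTA in 3 places and Uhg8 in 1, and kra has none of the words searched. The printed windows do not represent the bound hosts. Among bound hosts not printed, the windows of nop5 and Uhg2 also held none of the words, and those of RpS5a and Stt3A held GAGAG only.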

How the data were processed

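Peak lists of 3 ChIP-seq libraries of 1 group, as deposited, were the starting point. Per the labels, the assembly is dm6. No aligner or peak caller is given in the sources used here. Each list gives a peak's interval, summit and a signal score deposited by the authors on an unstated scale. The ranked lists also hold, as the authors' −log10 value, the IDR of each line, and it was 2 or more (IDR up to 0.01) in every thresholded line. In the conservative list's ranked file, 170 of the 8685 lines that pass this threshold are not in the thresholded list. Comparing input lines with the replicates' own lists showed which replicates each series-level list compares.

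An interval deposited on several lines was counted once, with the summit of its strongest line. Genes, TSSs and introns came from Ensembl release 115 (BDGP release 6), without transposable elements. Other noncoding RNA genes are those of ncRNA, tRNA, snRNA, rRNA or snoRNA biotype that are neither members nor hosts. Ribosomal protein genes were taken by symbol (RpL, RpS and sta). Replicates give mean ± SD (n = 3). P-values are two-sided exact permutation tests over the 8 sign patterns of 3 differences, unadjusted over the contrasts, and cannot fall below 0.25. The value is 0.25 whenever the 3 differences share a sign, whatever their size or spread. It rests on these libraries alone, and the spread between them may be technical. The conservative list has no test. Members, gene lists and words searched were chosen with earlier results of these data known. Named genes are the bound snoRNA genes found in every list or away from a host TSS, the 10 hosts with the strongest peak, hosts of 5 or more snoRNA genes, bound noncoding hosts and the members nearest the limit. Those named besides them were chosen after their values were seen. Alternatives were the window, a stricter IDR, other peak lists, interval overlap, single summit lines, host definition, clusters of snoRNA genes and leaving out each replicate. Python 3.11.15, numpy 2.4.6 and matplotlib 3.10.9 were used.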

Additional observations from a re-analysis of the deposited data

How the results depend on the processing

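The share of snoRNA genes bound (8.95%) moved with most choices. It was 3.89% with a 250 bp window, 25.7% with 1000 bp, 4.28% at an IDR of 0.001 or less, 6.61% in the pooled list, 1.95% for peaks found in all 3 replicates' lists, 16.3% by overlap of the interval and 18.6% when counted over 97 clusters. Leaving out 1 replicate gave 4.28% to 8.95%. The number of bound snoRNA genes within 500 bp of a host TSS (13) was 5, 23, 4 and 21 with the 250 bp window, the 1000 bp window, the peaks of all 3 replicates and interval overlap, and 7 to 13 without 1 replicate. The difference from other noncoding RNA genes (0.019 percentage points) had no stable sign: it was -0.479 at 250 bp, -1.23 at the stricter IDR, -2.97 in the pooled list and -1.58 for peaks of all 3 replicates, 9.86 at 1000 bp and 3.39 by overlap, and -1.52 to 0.019 without 1 replicate.

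The share of hosts bound (65.9%) was 54.1% at the stricter IDR, 42.4% for peaks of all 3 replicates and 50.6% to 65.9% without 1 replicate. Its excess over coding genes without a snoRNA (39.7 percentage points) was 29.9 for peaks of all 3 replicates and stayed positive under each alternative run. The difference between ribosomal protein hosts and other ribosomal protein genes (13.1 percentage points) was 33.0 for those peaks and 13.1 to 36.5 without 1 replicate, and positive throughout. Chosen after seeing the data, counting the annotated 5′ end alone gave 57.6% of hosts bound, and putting back lines absent from the thresholded list gave 68.2%. The causes were not tested. To leave out a replicate, the series-level list of the other 2 was used, and its peaks still draw on all alignments. Without replicate 2 this is the conservative list itself, so that run repeats the main value in each range. With 1 group no conditions could be compared, and the differences tested were those between gene groups within each replicate.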
